A study of Mus musculus with 10 samples.

Results

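Spermatogenesis stores and releases mRNA on a schedule, and much of that schedule is set by RNA-binding proteins. The 10 genes described here encode such proteins: the DAZ family members Dazl and Boll, the Nanos proteins Nanos2 and Nanos3, the Y-box proteins Ybx1, Ybx2 and Ybx3, the poly(A)-binding protein Pabpc1, the poly(C)-binding protein Pcbp3 and the ELAV protein Elavl1, also called HuR. They were taken by name from the 28125 genes of the scRNA-seq matrix, and all 10 also had a row in the scATAC-seq matrix. They were picked with earlier results of these data known, so counts of members that differed are descriptions and not independent evidence.

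In male germ cells, DAZ family and Nanos proteins act on opposite sides of the same decision. Nanos2 holds spermatogonia (SpG) in the undifferentiated state and recruits the deadenylation machinery to its targets, whereas Dazl, which binds 3′ ends of mRNAs together with poly(A)-binding protein, promotes translation and is required for germ cells to become competent for meiosis. Y-box proteins package mRNA, and Ybx2, also called MSY2, is the germ cell member that keeps stored transcripts stable in spermatocytes and spermatids. The factor perturbed in the study is NFYA, the sequence-specific subunit of the trimeric factor NF-Y, which recognises CCAAT boxes in promoters.

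RNA and accessible chromatin were read together from testes of mice in 5 conditions, with 1 library per condition and assay. Wild-type (WT) testes were taken at 11, 17 and 25 days post-partum (dpp). Adult testes were taken at 8 weeks from Cre/+ mice, which carry Cre knocked in at Stra8 and served as the adult control. Nfya-CKO mice of the same age were also used, and in these Stra8-Cre, active in SpG, deletes part of Nfya. Cells of all libraries were pooled by the authors into 13 populations: undifferentiated SpG (undiff. SpG), differentiating SpG (diff. SpG), preleptotene (pL), early leptotene to zygotene (eL/L/Z), leptotene to early pachytene (L/Z/eP), middle and late pachytene (mP/lP) and diplotene (D) spermatocytes, round spermatids (RS), elongating spermatids (ES), SpG of the Nfya-CKO library (SpG Nfya-CKO), Sertoli cells, other somatic cells and unknown cells. RNA is given as the mean number of UMIs (unique RNA molecules) per 10000 UMIs of a cell. Accessibility is given as scATAC-seq signal on a scale where all nuclear genes sum to 1000000 (per 1000000). Each population has 1 pooled value per gene, so there was no spread between replicates, no test was possible, and differences are described by their size alone.

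The scRNA-seq data held 45250 cells with a median of 3070 UMIs, and SpG Nfya-CKO rested on 491 cells against 1292 undiff. SpG, 927 diff. SpG and 1761 pL cells. SpG Nfya-CKO also stood apart in depth, with a median of 18361 UMIs and 4915 genes per cell against 9290 and 3206.5 in undiff. SpG, 6188 and 2720 in diff. SpG, and 8161 and 2800 in pL. Its median share of mitochondrial UMIs was 0.354%, against 0.904%, 0.891% and 0.889%. The part of depth in the RNA differences was not tested. Control SpG differed in origin: 92.0% of undiff. SpG and 99.7% of pL cells came from the juvenile WT libraries, whereas 84.5% of diff. SpG came from the Cre/+ library. Genotype and age therefore cannot be told apart in the comparisons with undiff. SpG and pL. The authors label SpG Nfya-CKO as undifferentiated, so genotype and stage cannot be told apart in the comparisons with diff. SpG and pL. Cell barcodes were shared between libraries to a degree that differed by assay: 3813 of the 5152 barcodes of the Nfya-CKO scRNA-seq library were also in the Cre/+ library, against 92 of 14920 for scATAC-seq. Among diff. SpG, 448 of 927 cells carried a barcode also found in the Nfya-CKO library. For 143 of them the partner was a SpG Nfya-CKO cell, with a median of 21876 UMIs there and 2378 UMIs in the Cre/+ library. For 305 the partner was among other somatic cells, with a median of 834 UMIs there and 11954 UMIs in the Cre/+ library. The share was 58 of 1292 cells in undiff. SpG, 4 of 1761 in pL, 1110 of 5055 in mP/lP, 709 of 1195 in ES and 175 of 491 in SpG Nfya-CKO itself. The deposited values are pooled, so they could not be recomputed without these cells. Comparisons with pL, in which few barcodes were shared, were added after the data were seen.

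Labels were checked against defining markers. The 4 markers of undifferentiated SpG summed to 11.3 in undiff. SpG, 6.75 in SpG Nfya-CKO, 1.91 in diff. SpG and 1.34 in pL. Zbtb16 (4.15 against 8.74) and Id4 (0.290 against 0.682) were lower in SpG Nfya-CKO than in undiff. SpG, whereas Gfra1 (1.20 against 1.08) and Etv5 (1.11 against 0.760) were higher. The 3 markers of differentiating SpG summed to 2.73 in undiff. SpG, 2.23 in SpG Nfya-CKO, 5.19 in diff. SpG and 7.97 in pL. Of these, Stra8 (0.969 against 2.05) was lower in SpG Nfya-CKO than in undiff. SpG. Kit (1.08 against 0.548) and Dmrtb1 (0.173 against 0.133) were higher. Nfya RNA was 1.11 in SpG Nfya-CKO, 0.456 in undiff. SpG and 0.667 in diff. SpG. Its level was thus higher under the Nfya-CKO label. Values per gene do not show the deleted exons and check neither the deletion nor the label. The 3 Leydig cell markers Star, Cyp17a1 and Insl3 summed to 48.2 in SpG Nfya-CKO, against 0.158 in undiff. SpG, 1.23 in diff. SpG and 213 in other somatic cells, with none of the 3 at 0 in SpG Nfya-CKO. The 4 Sertoli cell markers summed to 24.4 in SpG Nfya-CKO, of which Clu made 22.8, against 3.66 in undiff. SpG, while Sox9 was at 0.820 in SpG Nfya-CKO and at 10.7 in Sertoli cells. The 3 elongating spermatid markers Prm1, Prm2 and Tnp2 summed to 8.38 in diff. SpG, 0.419 in undiff. SpG, 0.0248 in SpG Nfya-CKO and 0.0118 in pL. Whether RNA of other cells contributes to the differences below was not tested.

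Because NF-Y binds CCAAT, promoters of the members are shown first. RefSeq windows from 250 bases upstream to 50 bases downstream of a start (GRCm38.p6, the assembly of mm10) were given for 8 members, with Ybx2 and Boll having 2 starts each. CCAAT, or its opposite-strand form ATTGG, was present in 6 of the 10 windows of these members, each of a different gene, against 37.4% of all 32851 windows. The Y-box family is shown because its 3 promoters differ most in this respect while all 3 RNAs were highest in mP/lP. Dazl and Boll are shown as the DAZ family pair. Sequences run 5′ to 3′ on the strand of the gene, with CCAAT or ATTGG in capitals.
Ybx1: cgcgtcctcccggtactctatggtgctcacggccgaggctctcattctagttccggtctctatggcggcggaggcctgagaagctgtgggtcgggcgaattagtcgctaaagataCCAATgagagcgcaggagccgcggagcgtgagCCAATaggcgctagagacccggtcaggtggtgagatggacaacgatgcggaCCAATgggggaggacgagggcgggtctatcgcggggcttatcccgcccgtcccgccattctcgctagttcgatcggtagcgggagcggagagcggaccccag
Ybx2: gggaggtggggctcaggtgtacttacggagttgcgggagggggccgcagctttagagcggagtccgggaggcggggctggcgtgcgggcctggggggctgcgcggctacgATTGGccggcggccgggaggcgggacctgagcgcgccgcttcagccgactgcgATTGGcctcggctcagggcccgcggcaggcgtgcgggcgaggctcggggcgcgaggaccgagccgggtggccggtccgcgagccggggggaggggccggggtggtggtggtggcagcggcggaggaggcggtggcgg
Ybx3: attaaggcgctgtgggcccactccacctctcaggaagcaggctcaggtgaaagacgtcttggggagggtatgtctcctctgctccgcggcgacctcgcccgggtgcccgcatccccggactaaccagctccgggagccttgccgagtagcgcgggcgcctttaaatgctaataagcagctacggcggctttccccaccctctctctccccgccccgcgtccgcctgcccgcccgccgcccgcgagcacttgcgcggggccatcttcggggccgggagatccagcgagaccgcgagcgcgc
Dazl: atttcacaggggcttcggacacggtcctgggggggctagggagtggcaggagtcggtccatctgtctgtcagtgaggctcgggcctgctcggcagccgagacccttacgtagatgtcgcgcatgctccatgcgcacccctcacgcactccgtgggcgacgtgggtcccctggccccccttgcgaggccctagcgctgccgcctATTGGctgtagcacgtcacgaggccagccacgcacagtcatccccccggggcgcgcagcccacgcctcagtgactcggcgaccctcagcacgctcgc
Boll: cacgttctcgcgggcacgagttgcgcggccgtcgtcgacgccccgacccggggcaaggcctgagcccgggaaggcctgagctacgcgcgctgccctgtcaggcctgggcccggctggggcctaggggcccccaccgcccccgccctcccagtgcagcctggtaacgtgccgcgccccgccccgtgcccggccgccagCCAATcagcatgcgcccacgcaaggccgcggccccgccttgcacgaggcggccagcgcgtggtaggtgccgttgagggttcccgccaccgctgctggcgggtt
The Ybx1 window (chr4:119294464-119294763, minus strand) held 3 CCAAT matches, which began 52, 103 and 135 bases upstream of the start. Only 3.37% of all windows held 3 or more matches. The Ybx2 window (chr11:69935649-69935948, plus strand) held ATTGG 87 and 140 bases upstream, and the window of its other start held neither motif. The Ybx3 window (chr6:131388401-131388700, minus strand) held none. Dazl (chr17:50293571-50293870, minus strand) had ATTGG 47 bases upstream, and Boll (chr1:55362679-55362978, minus strand) had CCAAT 53 bases upstream of 1 start and no match at the other. Elavl1 and Nanos2 each had 2 matches and Nanos3 had none. Pabpc1 and Pcbp3 are named only. A match describes letters in a window and is not a measured binding site.

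Across the 9 control germ cell populations, some members were highest in pL or before and others in mP/lP, with Boll in between. The mix of libraries also changed along these populations. Juvenile WT cells made 92.0% of undiff. SpG, 15.3% of diff. SpG, 99.7% of pL, 98.6% of eL/L/Z and 97.2% of L/Z/eP. They made 72.0% of mP/lP, 46.9% of D, 22.9% of RS and 0.251% of ES. Stage cannot be told apart from age and genotype where this share differs. Of the 8 members with a mean of at least 0.2 over the 13 populations, Ybx1, Ybx2, Ybx3, Pabpc1 and Pcbp3 were highest in mP/lP. This is 5 of 8 members, against 13.5% of all 10386 genes at that level. Dazl and Elavl1 were highest in pL, as were 20.3% of genes, and Boll was highest in L/Z/eP, as were 5.59%. Nanos2 and Nanos3, whose means were under 0.2, were highest among control germ cells in undiff. SpG.

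**Figure D1:**
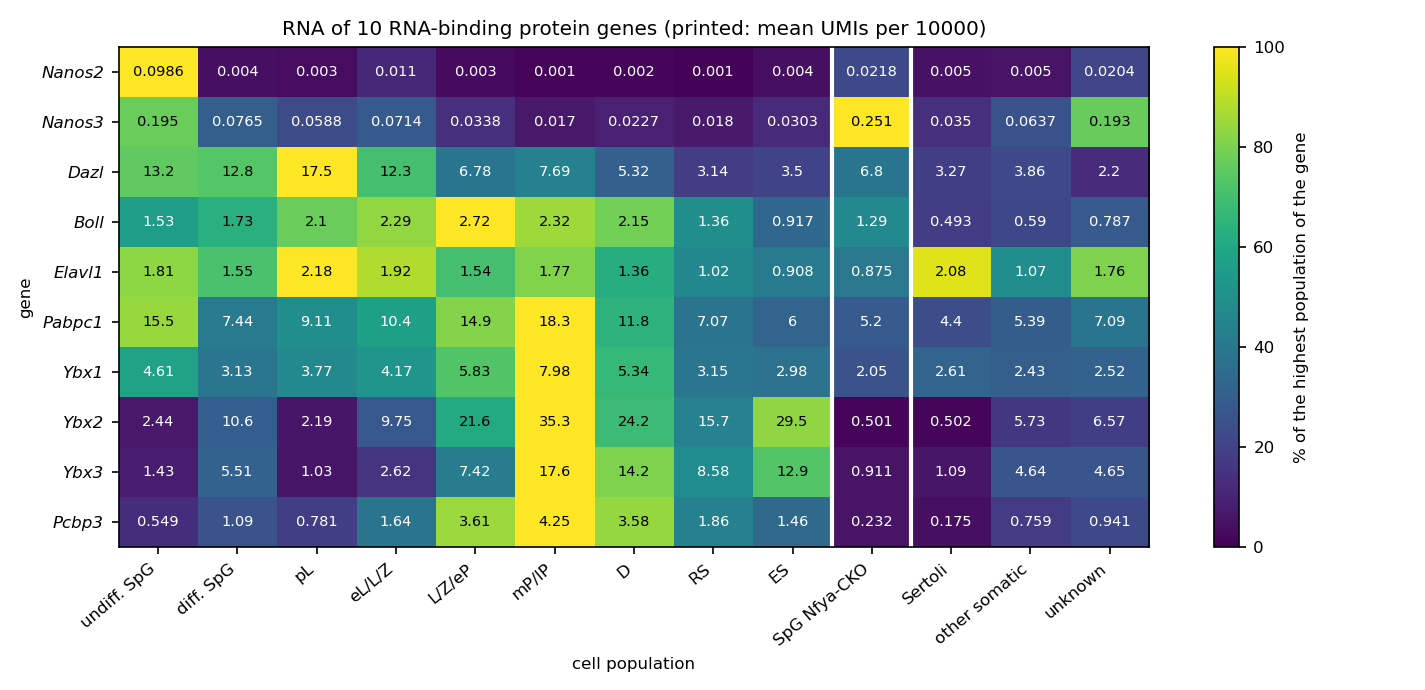
RNA of the 10 members (rows) in the 13 populations (columns). Colour gives the level as a percent of the highest population of the same gene, printed numbers give mean UMIs per 10000, and white lines set off SpG Nfya-CKO. Ybx1, Ybx2, Ybx3, Pabpc1 and Pcbp3 peak in mP/lP, whereas Nanos2 peaks in undiff. SpG and Nanos3 in SpG Nfya-CKO.

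Nanos2, a repressor that keeps SpG undifferentiated, was highest at the start of the lineage. Its RNA was 0.0986 in undiff. SpG and between 0.00113 and 0.0110 in the other 8 control germ cell populations, and it was 0.0218 in SpG Nfya-CKO. In UMIs, the pooled value corresponds to about 136 in undiff. SpG, 2.92 in diff. SpG and 21.3 in SpG Nfya-CKO, so values after undiff. SpG rest on few molecules. Nanos3, which protects germ cells and also marks SpG, was at 0.195 in undiff. SpG, 0.0765 in diff. SpG and 0.0588 in pL, and its highest level in any population, 0.251, was in SpG Nfya-CKO. Nanos2 accessibility was 29.9 in undiff. SpG, 31.0 in SpG Nfya-CKO, 24.1 in ES and between 7.78 and 11.3 in the other control germ cell populations, and it was listed at 0 in unknown cells. SpG Nfya-CKO was thus close to undiff. SpG in accessibility but not in RNA. Nanos3 accessibility varied less, from 51.4 in undiff. SpG to 22.9 in ES.

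Dazl RNA was highest in the first stages and lower from L/Z/eP on. It was at 13.2 in undiff. SpG, 12.8 in diff. SpG, 17.5 in pL and 12.3 in eL/L/Z. It was 6.78 in L/Z/eP, with 7.69 in mP/lP, 5.32 in D, 3.14 in RS and 3.50 in ES. Boll, the DAZ family member of meiotic and later stages, peaked later and changed less: 1.53 in undiff. SpG, 1.73 in diff. SpG, 2.10 in pL, 2.29 in eL/L/Z, 2.72 in L/Z/eP, 2.32 in mP/lP, 2.15 in D, 1.36 in RS and 0.917 in ES. Dazl was thus at 38.8% of its maximum in the population where Boll was at its own. The Boll gene overlaps Gm8292 on the opposite strand, and whether counting used strand is not given in the sources used here.

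The Y-box proteins Ybx2 and Ybx3, which package stored mRNA, spanned the widest range through prophase I. Ybx2 was at 2.44 in undiff. SpG, 10.6 in diff. SpG, 2.19 in pL, 9.75 in eL/L/Z, 21.6 in L/Z/eP, 35.3 in mP/lP, 24.2 in D, 15.7 in RS and 29.5 in ES. Ybx3 followed the same order of steps, with 1.43, 5.51, 1.03, 2.62, 7.42, 17.6, 14.2, 8.58 and 12.9 in these populations. Over the 13 populations the log2 levels of Ybx2 and Ybx3 had r = 0.94, a description over populations that share libraries and depth. Ybx3 overlaps Gm22362 on the same strand. Ybx1, the Y-box protein of most tissues, changed less, from 4.61 in undiff. SpG and 3.13 in diff. SpG to 7.98 in mP/lP and 2.98 in ES.

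Ybx2, Ybx3 and Pcbp3 were the members whose highest and lowest populations lay at least 10-fold apart (value + 0.1), at 59.0-fold, 17.5-fold and 15.8-fold. This is 3 of 8 members, against 19.9% of genes. The lowest of the 13 populations was SpG Nfya-CKO for Ybx2 and Ybx3 and Sertoli cells for Pcbp3. Over the 9 control germ cell populations alone, and without a pseudocount, the ranges were 16.2-fold, 17.2-fold and 7.73-fold. Pcbp3, a KH-domain protein that binds poly(C), was at 0.549 in undiff. SpG, 0.781 in pL, 1.64 in eL/L/Z, 3.61 in L/Z/eP, then 4.25 in mP/lP and 1.46 in ES. Pabpc1, the cytoplasmic protein that coats poly(A) tails, had a pair of high points, 15.5 in undiff. SpG and 18.3 in mP/lP, with 7.44 in diff. SpG between them. Elavl1, which binds AU-rich elements, ranged from 2.18 in pL to 0.908 in ES and was at 2.08 in Sertoli cells.

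Step by step, 1 to 3 members passed 2-fold in RNA (value + 0.1) at each transition up to mP/lP. The steps into and out of diff. SpG also changed between mostly juvenile WT and mostly Cre/+ cells. From undiff. to diff. SpG, Ybx2 was 4.22-fold and Ybx3 3.67-fold higher, 2 of 10 members against 10.2% of genes, and Pabpc1 was 2.07-fold lower, 1 of 10 against 7.05%. Nanos2 (log2 -0.93) and Nanos3 (-0.74) were inside the limit on this scale, which understates changes of low genes. With a pseudocount of 0.01, lower member steps over all transitions came to 5, against 3. From diff. SpG to pL, the log2 ratios of Ybx2 and Ybx3 were -2.22 and -2.32, 2 of 9 members against 12.1% of genes. From pL to eL/L/Z they were 2.11 and 1.27, 2 of 9 against 5.17%. At the step to L/Z/eP, Ybx2 was higher by log2 1.14, Ybx3 by 1.47 and Pcbp3 by 1.09, 3 of 9 against 6.04%, and at the step to mP/lP Ybx3 was higher by 1.23, 1 of 8 against 1.57%. No member passed 2-fold at the steps to D, RS or ES.

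The high values of Ybx2 and Ybx3 in diff. SpG broke the order of stages. The same population had the elongating spermatid marker sum of 8.38 given above, against 0.419 in undiff. SpG and 0.0118 in pL. Round spermatid markers Acrv1 and Tnp1 summed to 2.68 in diff. SpG, 0.249 in undiff. SpG and 0.0118 in pL. Spermatocyte markers Sycp3, Spo11 and Piwil1 summed to 4.31 in diff. SpG, 1.54 in undiff. SpG, 1.58 in pL and 16.2 in mP/lP. Dazl and Boll stayed within 1.13-fold between undiff. and diff. SpG, and their levels in ES (3.50 and 0.917) were below those in undiff. SpG (13.2 and 1.53). Whether cells of other stages add to the diff. SpG values of Ybx2, Ybx3 and Pcbp3 was not tested.

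Most members were lower in somatic cells. In 7 of 8 members the highest control germ cell population was at least 2-fold over the higher of Sertoli and other somatic cells, against 38.1% of genes. The log2 difference was 2.60 for Ybx2, 2.34 for Pcbp3, 2.15 for Dazl and 2.03 for Boll. Elavl1, a broadly expressed gene, was the exception at 0.07. Dazl was still at 3.27 in Sertoli cells and 3.86 in other somatic cells, and Ybx2 at 0.502 and 5.73. In other somatic cells 78.8% of cells came from the Nfya-CKO library, and 3945 of 5883 carried a barcode shared between the adult libraries. The level of Dazl in RS, 3.14, was below that of Sertoli cells and cannot be told from background.

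The comparison that the design implies is SpG Nfya-CKO with control SpG, which asks how these genes stood in SpG of mice with the Nfya deletion. Against undiff. SpG, 9 of 10 members were lower in SpG Nfya-CKO, as were 46.5% of all genes. Ybx2 was at 0.501 against 2.44, Pabpc1 at 5.203 against 15.5 and Ybx1 at 2.05 against 4.61. These 3 of 10 members were at least 2-fold lower, against 3.4% of 13954 genes and 4.85% of genes with a mean of at least 1. The genes were chosen with earlier results of this comparison known, so the count describes them and is not independent evidence of their direction. No member was 2-fold higher, against 4.76% of genes. The log2 ratios were -2.08 for Ybx2, -1.56 for Pabpc1 and -1.13 for Ybx1. Dazl, Pcbp3 and Elavl1 lay just inside the 2-fold limit on the scale of value + 0.1, at -0.94, -0.97 and -0.97. The count of 3 therefore depends on the limit, the scaling and the pseudocount: all 3 passed under median-of-ratios scaling, which gave 6 of 10, Pcbp3 (-1.21), Elavl1 (-1.04) and Nanos2 passed with a pseudocount of 0.01, also 6 of 10, and Ybx1 (-0.88) passed no longer with a pseudocount of 1, which left 2. Over all genes, 475 were at least 2-fold lower as reported, and 687, 1041 and 45 under these 3 settings in turn. The median of the 10 members was -0.96, and that of all genes 0.04.

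Dazl was at 6.80 in SpG Nfya-CKO against 13.2, Pcbp3 at 0.232 against 0.549 and Elavl1 at 0.875 against 1.81, so that without a pseudocount the last 2 were past 2-fold. Ybx3 (0.911 against 1.43) and Boll (1.29 against 1.53) were at -0.60 and -0.23. Nanos2 (0.0218 against 0.0986) was at -0.71, a value set by the pseudocount of 0.1: it was -1.77, past 2-fold, with 0.01 and -0.10 with 1. Nanos3 was the member above 1, at 0.251 against 0.195 (log2 0.25). The level of Ybx2 in SpG Nfya-CKO was that of Sertoli cells (0.502), so it cannot be told from background, and the ratios of Ybx2 rest on it. Ybx1, Ybx3 and Elavl1 in SpG Nfya-CKO were also below their Sertoli levels of 2.61, 1.09 and 2.08. In other somatic cells Ybx2 (5.73), Ybx3 (4.64) and Pcbp3 (0.759) were above their levels in undiff. SpG. Ybx2 and Ybx3 were there also above their pL levels, and Pabpc1 (5.39) above its level in SpG Nfya-CKO. Background was not separated from expression of the somatic cells themselves, so how far these germ cell levels exceed it is not known. Ybx1, Ybx2, Ybx3, Pabpc1, Pcbp3 and Elavl1 were lower in SpG Nfya-CKO than in all 9 control germ cell populations, 6 of 8 members against 12% of genes.

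Against diff. SpG, Ybx2 again differed most, and the other members past 2-fold were Ybx3 and Pcbp3 in place of Pabpc1 and Ybx1. Ybx2 (10.6 in diff. SpG), Ybx3 (5.51) and Pcbp3 (1.09) were lower in SpG Nfya-CKO by log2 -4.15, -2.47 and -1.84, which is 3 of 9 members at least 2-fold lower against 10.9% of genes and 6.28% of those with a mean of at least 1. Pabpc1 and Ybx1, at -0.51 and -0.58, were inside the limit, as were Dazl at -0.91, Elavl1 at -0.76 and Boll at -0.40. With a pseudocount of 1, Pcbp3 (-0.76) passed 2-fold no longer, which left 2 of 9. Median-of-ratios scaling added Dazl (-1.04), which gave 4 of 9. Over all genes, 132 and 1820 were lower under these settings, and 1600 as reported. Nanos3 was at 0.99, and none of 9 was 2-fold higher, against 7.44% of genes. With a pseudocount of 0.01 Nanos3 (1.60) was past 2-fold, 1 of 9, and 2358 genes were higher, against 1096 as reported. The diff. SpG values carry the spermatid markers and the shared barcodes described above.

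Against pL, which had few shared barcodes but came almost wholly from juvenile testes, 4 of 9 members were at least 2-fold lower, against 5.37% of genes and 9.94% of genes with a mean of at least 1. These were Ybx2 (log2 -1.93), Pcbp3 (-1.41), Dazl (-1.35) and Elavl1 (-1.23). Nanos3 was 2-fold higher (1.15), 1 of 9 against 11% of genes. Pabpc1 (-0.80) and Ybx1 (-0.85), past 2-fold against undiff. SpG, were not past it against pL. Ybx3 was at -0.16, but its levels in SpG Nfya-CKO (0.911) and pL (1.03) were both below that of Sertoli cells, so little can be read from this ratio. On the reported scale, Ybx2 was the member at least 2-fold lower against all 3 control populations. These comparisons share the SpG Nfya-CKO values and are not independent of each other. Those with diff. SpG and pL also differ in stage. That Ybx2 stood alone depends on the setting. Under median-of-ratios scaling, Pcbp3 (-1.10 and -1.94) and Dazl (-1.12 and -1.04) also passed 2-fold against undiff. and diff. SpG. With a pseudocount of 0.01, Pcbp3 passed it against undiff. SpG (-1.21). For pL, only ratios on the reported scale are given. Dazl and Boll were both lower in SpG Nfya-CKO than in each of the 3 control populations. Against pL, Dazl passed 2-fold while Boll, at -0.66, did not.

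**Figure D2:**
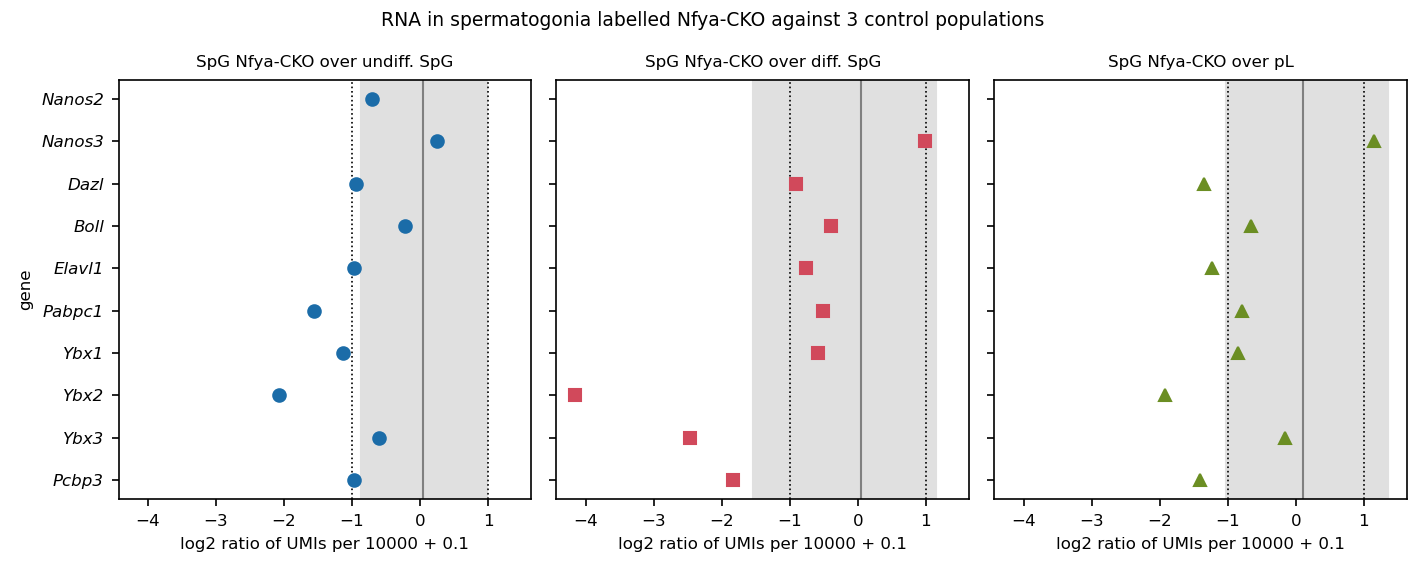
Log2 ratio of RNA (UMIs per 10000 + 0.1) in SpG Nfya-CKO over undiff. SpG (left), diff. SpG (middle) and pL (right) for each member, 1 point per pooled value with no replicate. Grey bands span the 5th to 95th percentile of all genes, grey lines their median, and dotted lines 2-fold. Ybx2 and Pcbp3 lie left of the band in every panel, and Ybx3 only in the middle one. Nanos3 lies right of the median in every panel.

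Accessibility of the members moved in a narrower range than RNA. Against undiff. SpG, 5 of 10 members had a ratio of at most 0.8 in SpG Nfya-CKO: Boll (55.7 against 84.1, ratio 0.663), Ybx2 (69.9 against 96.5, 0.724), Ybx1 (82.1 against 110.7, 0.742), Elavl1 (58.1 against 77.3, 0.751) and Pabpc1 (99.6 against 126.5, 0.787). The background was 13.1% of all genes and 23.1% of genes in the highest decile of signal, to which 5 members belonged. Pcbp3 (0.875), Dazl (0.898), Nanos3 (0.938) and Nanos2 (1.04) were inside the limit. Ybx3 was at least 25% higher, at 88.2 against 68.7 (1.28), 1 of 10 members against 26.3% of genes. It stayed above 1 but passed 25% no longer with mitochondrial signal in the total (1.17) or median-of-ratios scaling (1.19).

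How far genes were lower depended on signal, so the members need to be read against genes of the same decile. The median ratio to undiff. SpG was 1.03 over all genes and 0.901 in the highest decile, and the median of the members was 0.830. Boll, at 0.663, lay below the 10th percentile of the ninth decile (0.732), and Ybx2, at 0.724, lay at that of the highest decile (0.725). Ybx1 (0.742) and Elavl1 (0.751, with a 10th percentile of 0.750 in its decile) lay inside the 10th to 90th percentile of genes of like signal, as did Pabpc1, and Dazl and Pcbp3 lay next to the median of their decile. The mean enrichment of scATAC-seq fragments at transcription start sites was 7.99 in SpG Nfya-CKO, 12.7 in undiff. SpG, 15.1 in diff. SpG and 14.8 in pL, over 470, 1230, 760 and 1721 cells. Whether that difference contributes to lower signal at highly accessible genes was not tested.

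Against diff. SpG, 7 of 10 members had a ratio of at most 0.8, with Boll at 0.447, Ybx2 at 0.496, Pabpc1 at 0.588, Ybx1 at 0.603, Elavl1 at 0.604, Pcbp3 at 0.676 and Dazl at 0.743. The background was 27.5% of all genes but 71.5% of the highest decile, whose median was 0.699. Most members in the highest decile were therefore lower together with genes of like signal, and Boll and Ybx2 lay below its 10th percentile of 0.518. Ybx3 (1.56) and Nanos2 (3.98) were higher, 2 of 10 against 44.8% of genes. Ybx3 lay above the 90th percentile of its decile in both comparisons.

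**Figure D3:**
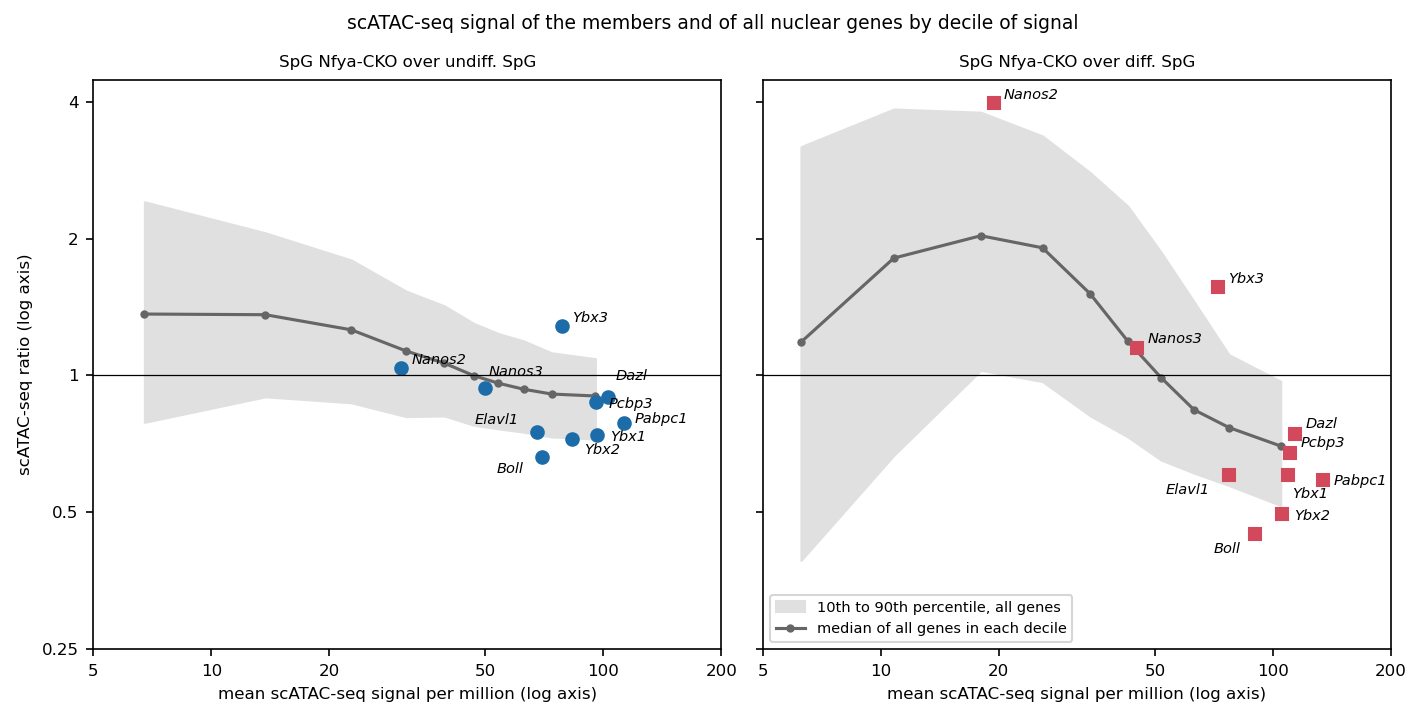
Ratio of scATAC-seq signal in SpG Nfya-CKO over undiff. SpG (left) and diff. SpG (right) against mean signal per 1000000, both axes logarithmic. Points are members, the grey line joins the median of all nuclear genes in each decile of signal, and the band spans their 10th to 90th percentile. Boll lies below the band and Ybx3 above it in both panels, and Dazl and Pcbp3 lie near the line.

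Along the control germ cell populations, accessibility on the scale of nuclear genes passed these limits mainly at the first step and for Nanos2. The origin of the populations, given above for RNA cells, also changes along these steps. With mitochondrial signal in the total, 12 member steps were lower and 13 higher, against 4 and 8. From undiff. to diff. SpG, Boll (84.1 to 124.5, ratio 1.48), Ybx2 (96.5 to 140.8, 1.46), Pabpc1 (126.5 to 169.4, 1.34) and Pcbp3 (102.1 to 132.1, 1.29) were at least 25% higher. This is 4 of 10 members against 19.8% of all genes and 53.6% of the highest decile. Nanos2 was lower at this step with a ratio of 0.260, 1 of 10 against 37.6% of genes. Later, Nanos2 passed the limits at 5 steps, with ratios of 0.727 into L/Z/eP (17.9% of genes lower), 1.28 into mP/lP (18.4% higher), 0.799 into D (6.55% lower), 1.34 into RS (22.8% higher) and 2.15 into ES (28.7% higher), at signals between 8.19 and 24.1. At the last step Boll was also higher (1.40), so 2 of 10 members were higher, and Nanos3 was lower (0.782), against 36.6% of genes. Accessibility in ES rested on 124 scATAC-seq cells, against 4835 in RS.

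RNA and accessibility went together for some members and apart for others. Over the 13 populations, Pearson's r between the 2 measures was 0.96 for Pcbp3, 0.93 for Ybx2 and 0.82 for Ybx1. These are descriptions over populations that share cells, libraries and depth. Over the 9 control germ cell populations the values were 0.96, 0.86 and 0.60. Ybx2 accessibility went from 96.5 in undiff. SpG and 126.8 in pL to 137.9 in eL/L/Z, 160.6 in L/Z/eP and then 178.8 in mP/lP, while its RNA in mP/lP was 16.2-fold that in pL (ratio of levels without a pseudocount). Pcbp3 accessibility went from 102.1 in undiff. SpG to 182.8 in L/Z/eP.

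For Ybx3 the relation was inverse, with r = -0.39 over 13 and -0.68 over 9 populations, and for Elavl1 r was 0.13 and -0.69. Ybx3 accessibility was highest in SpG Nfya-CKO at 88.2 and in undiff. SpG at 68.7, where its RNA was 0.911 and 1.43, and it was 52.7 in mP/lP, where its RNA peaked at 17.6. Dazl and Boll RNA was lower after their peaks while accessibility was not (r = -0.45 and -0.48 over 9 populations). Over 13 populations, r had the other sign, at 0.45 and 0.62. Dazl signal was 151.1 in eL/L/Z and 152.3 in ES while its RNA went from 12.3 to 3.50, and Boll signal was highest, 174.7, in ES. The ES signal rested on 124 scATAC-seq cells, against 3886 in eL/L/Z. The study's methods define promoter accessibility by coverage close to the start site in pooled tracks, but do not say whether the gene matrix holds that quantity, so its signal is not assigned here to the promoters printed above.

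**Figure D4:**
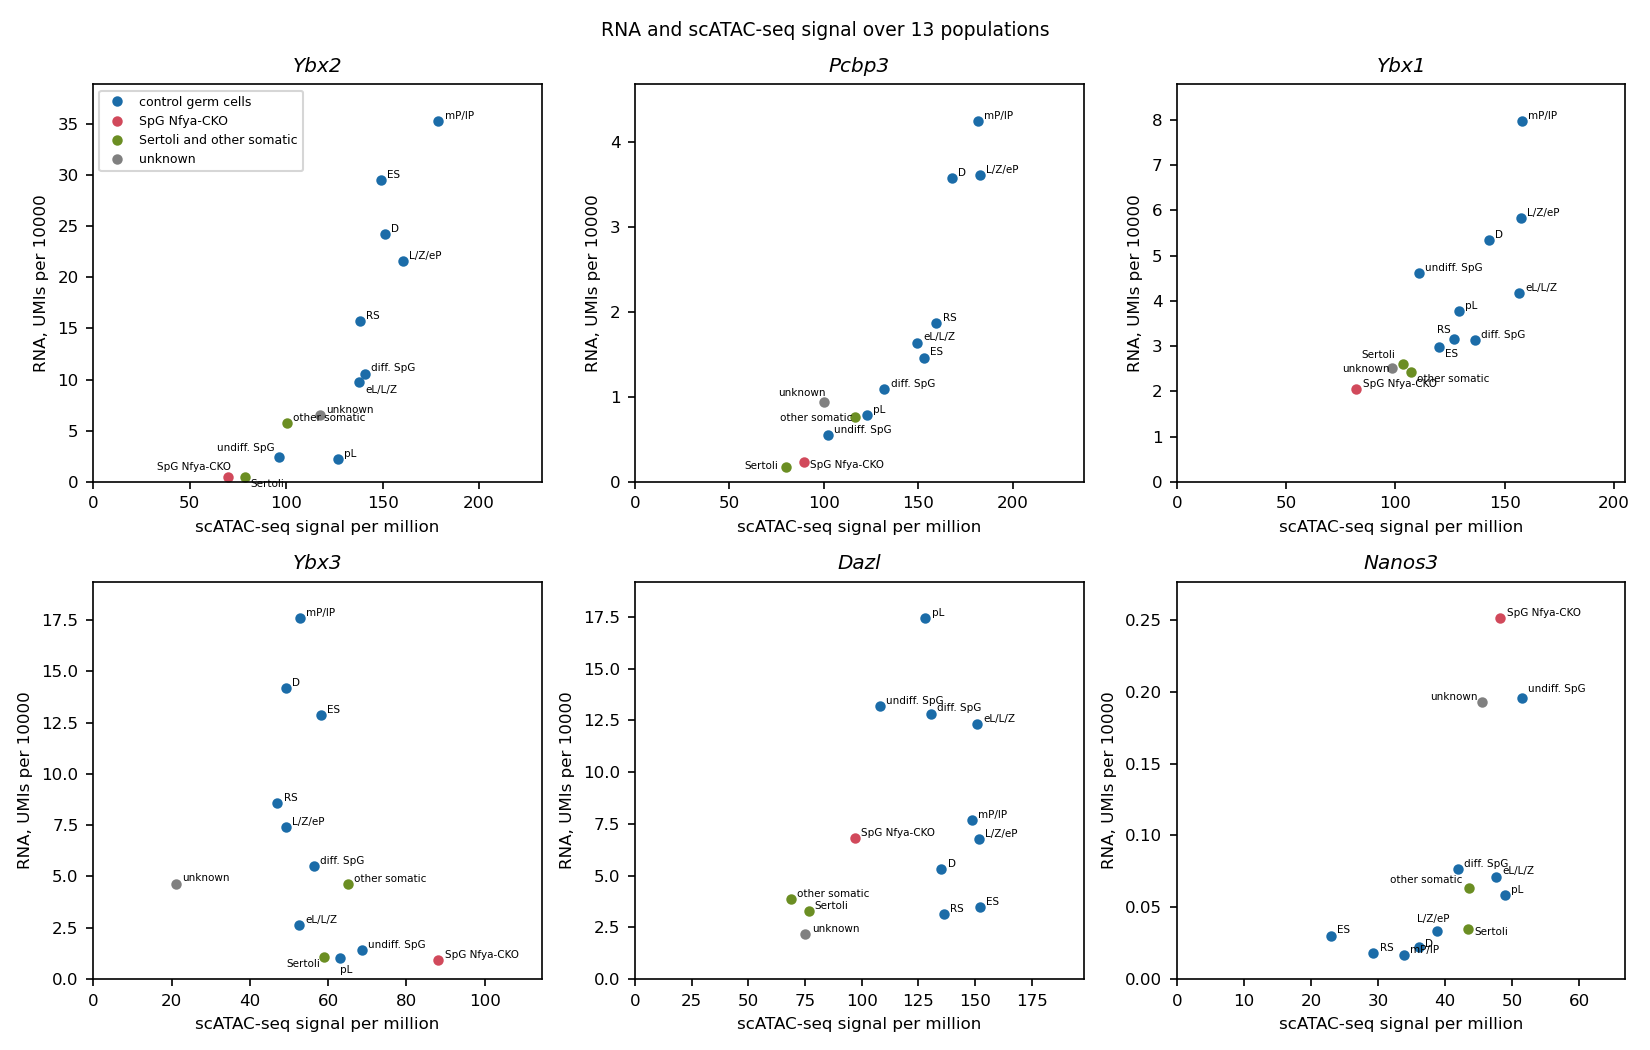
RNA (UMIs per 10000) against scATAC-seq signal per 1000000 for 6 members, 1 point per population. Ybx2, Pcbp3 and Ybx1 are high together on both axes, Ybx3 has its lowest RNA among germ cells at its highest signal (SpG Nfya-CKO), and Dazl keeps its signal in later stages while its RNA is lower.

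Other genes of mRNA translation, storage and decay were counted from lists chosen by function. Of 25 genes of translation and meiotic entry, 2 were at least 2-fold lower in SpG Nfya-CKO than in undiff. SpG and 0 higher, against 4 and 1 for diff. SpG and 6 and 3 for pL. For poly(A) binding the counts lower than undiff. SpG, diff. SpG and pL were 0 of 7, 2 of 8 and 2 of 7, for KH-domain and HuR relatives 2, 3 and 6 of 14, and for deadenylation 1 of 18, 1 of 19 and 2 of 18, with none higher. Over all genes, 3.4%, 10.9% and 5.37% were lower and 4.76%, 7.44% and 11% higher in these 3 comparisons. Meioc, a partner of Ythdc2 that sustains the meiotic programme, was at least 2-fold lower against all 3, at 0.0513 in SpG Nfya-CKO, 0.409 in undiff. SpG, 2.24 in diff. SpG and 2.37 in pL (log2 -1.75, -3.95 and -4.03). Ddx25, a testis helicase of stored mRNA, was at 0.271, 0.762, 0.653 and 0.448 (-1.22, -1.02 and -0.56), and so was not past 2-fold against pL. Tob2, an adaptor of the CCR4-NOT deadenylase, was at 0.388, 0.965, 1.17 and 1.73 (-1.13, -1.37 and -1.90). The list medians of the log2 ratio lay between -0.43 and 0.04, except for poly(A) binding against diff. SpG and pL, at -0.74 in both, and KH-domain and HuR relatives against pL, at -0.88. The median of all genes was 0.04 against undiff. and diff. SpG and 0.11 against pL.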

How the data were processed

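scRNA-seq and scATAC-seq libraries came from testes of 5 conditions, with 1 library of each kind per condition. Per the submitters' notes and the study's methods, the authors aligned reads to mm10 (STAR 2.7.10b for RNA, BWA 0.7.12 for scATAC-seq), collapsed UMIs, used Seurat 5.2.1 to keep cells above 500 genes and below 5% mitochondrial UMIs, removed doublets, and filtered scATAC-seq cells with ArchR 1.0.3 at a TSS score of 4 and 1000 fragments. The deposited gene matrices, 1 for each assay, hold a pooled value per population on a natural log scale (log of 1 plus the mean). The authors also deposited per-cell tables with the count of UMIs or fragments, the percent of mitochondrial UMIs, and TSS enrichment, a ratio. 12 further columns of the cell tables were not used.

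Members and lists were chosen with earlier results of these data known. Values were turned back to a linear scale with Python 3.11.15, numpy 2.4.6 and pandas 2.3.3. RNA values sum to 10000 per population, and 91% to 100% of the 200 lowest values of a population equal 1 UMI of 1 cell (tolerance 0.01 UMIs), which is how the scale was found. Nuclear scATAC-seq values were rescaled to 1000000 per population, since the 13 mitochondrial genes held 31.2% to 64.5% of the signal. RNA was compared as the log2 ratio of value + 0.1 (which understates the change of low genes) over genes with a mean of at least 0.05, scATAC-seq as the ratio over genes with a mean of at least 5, with limits of 2-fold for RNA and ratios of at most 0.8 or at least 25% above 1 for scATAC-seq. Pattern likeness was Pearson's r of log2(value + 0.1) over genes with a mean of at least 0.2. Named genes were the members, cell type markers, Nfya, the 3 genes most like each member and list genes past 2-fold against both control SpG. No p-value was computed. Shares of cells and UMIs carry counting error beside any difference between animals. Exact UMI sums could not be recovered from means over cells, so no counting interval is given, and UMIs quoted for Nanos2 are approximate (pooled value times the total UMIs of the population). The scripts were tested on simulated data. 47 alternatives were planned and 4 added later.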

Additional observations from a re-analysis of the deposited data

How the results depend on the processing

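No paired analysis was possible because each condition is 1 library and each population has 1 pooled value. The values rest on sizes alone: 491 cells behind SpG Nfya-CKO, few UMIs for Nanos2, and barcodes shared between the adult libraries limit them. Of 668 single-gene values under alternatives, 643 stayed within 1.5-fold, 25 moved and none past its limit changed sign, and of 139 counts 91 stayed and 48 moved. Median-of-ratios scaling brought the members at least 2-fold lower than undiff. SpG from 3 to 6, as did a pseudocount of 0.01 (6), while a pseudocount of 1 left 2 there (Ybx1 lost) and 2 of 3 against diff. SpG (Pcbp3 lost). With pL as control 1 member was higher, and with the pseudocount of 0.01 1 was higher than diff. SpG and 5 member steps were lower (3 in the reported values). For scATAC-seq, members higher than undiff. SpG were 0 with mitochondrial signal in the total, 0 with median-of-ratios scaling and 2 with pL as control, and with mitochondrial signal 12 member steps were lower and 13 higher, against 4 and 8.

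These scalings shifted the median log2 ratio of all genes by -0.13 (RNA) against undiff. SpG, and for scATAC-seq by -0.16 and -0.29 (mitochondrial signal) and -0.11 and -0.14 (median-of-ratios) against undiff. and diff. SpG. The mitochondrial setting took the scATAC-seq ratio of Nanos2 to undiff. SpG from 1.04 to 0.942 and of Nanos3 to diff. SpG from 1.15 to 0.956, and median-of-ratios scaling took the former to 0.963, and no other member crossed 1.

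Counts over all genes moved with the limits. RNA lower and higher than undiff. SpG (475 and 664 as reported) came to 1041 and 1564 with a pseudocount of 0.01, 45 and 43 with 1, 1575 and 2025 at 1.5-fold, and 138 and 100 with a minimum mean of 1. Against diff. SpG (1600 and 1096) these were 2358 higher with a pseudocount of 0.01, 132 and 65 with 1, 943 lower with a minimum of 0.2, 2919 and 2908 at 1.5-fold, and 177 and 149 with a minimum mean of 1. scATAC-seq counts against undiff. SpG (2695 and 5414) were 4872 and 2893 with mitochondrial signal in the total, 4507 lower with median-of-ratios scaling, 4751 and 10408 with no minimum, 550 and 2676 at 1.5-fold, and 476 and 35 in the highest decile. Against diff. SpG (5812 and 9453) they were 9099 lower with no minimum, 3089 lower at 1.5-fold, and 1509 and 49 in the highest decile. For the other lists, genes lower than undiff. SpG (5) were 0 with a pseudocount of 1 and 15 at 1.5-fold. Against diff. SpG (10 lower, 1 higher) they were 2 higher with 0.01, 1 lower and 0 higher with 1, and 20 lower and 7 higher at 1.5-fold. Of 24 most alike genes, 5 were shared with Spearman's rho and 2 with germ cells alone. Apart from these settings, the cause of the shifts was not tested.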

Other observations

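The genes whose RNA pattern was most like that of each member were named by Pearson's r over the 13 populations, which share libraries and depth, so the values are descriptions. Most names depend on this choice: of 24, only 5 were named again with Spearman's rho and 2 over the 9 control germ cell populations. Dazl was closest to Uhrf1 (0.97), a reader of hemimethylated DNA, then to Supt16 (0.97), a histone chaperone, and Polr2b (0.96), an RNA polymerase II subunit. Boll was closest to Kif24 (0.98), Clec16a (0.97) and Ccdc73 (0.97), which were all highest in L/Z/eP. Ybx1 and Pabpc1 were among the 3 nearest genes of each other (0.94), with Fyttd1 (0.96) and Bcl2l12 (0.94) near Ybx1 and Cbl (0.92) near Pabpc1. A further entry near Pabpc1, pi-Cbl.1, has the same values as Cbl.

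Ybx3 had 223 genes with r over 0.95, led by Smpd5, Tdrd6 and Ndufaf3 (each 0.99), of which Tdrd6 is a component of the chromatoid body. Ybx2 had 74 such genes, led by Syngr4 (0.99), 17-qC-935 and 1700008K24Rik (both 0.98, with nearly the same values). Pcbp3 had 50, led by Brdt (0.98), a bromodomain protein of spermatocytes and spermatids, Efcab5 (0.98) and Rnls (0.98). Elavl1 had none, and its nearest were Wac (0.95), Hnrnpa3 (0.94) and Rnf7 (0.94).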
